A study of Homo sapiens with 8 samples.

Results

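The SOX genes described here have known roles in neural or mesenchymal cells. They were sought by name among 96614 assembled transcripts, and 8 of the 10 sought were found: SOX3, SOX4, SOX5, SOX9, SOX11, SOX12, SOX13 and SOX21. They held 30 of the transcripts, and each of the 8 had enough reads to be tested among the 10847 genes tested out of 29937 genes and loci. SOX1 had no transcript listed under its name, so it was not analysed here. The 1 transcript listed under SOX6, by position, lies on the opposite strand and was kept out of the gene counts, so SOX6 has none. All groups derive from H1, an embryonic stem cell line of human origin, taken as undifferentiated pluripotent cells (hPSC, kept in mTeSR1 on Matrigel) or on day 5 of differentiation. Endoderm cultures received WNT3A (given as 50 nM/ml) and 100 ng/ml Activin A. Mesoderm cultures received 100 ng/ml VEGF, 100 ng/ml BMP4 and 10 ng/ml bFGF, with 100 ng/ml Activin A in the opening 24 hours alone. Ectoderm cultures received A83-01, PNU-74654 and Dorsomorphin at 2 µM each, small molecules that block activin and TGF-beta receptors, beta-catenin and BMP receptors. Each group had 2 long-read libraries of polyadenylated RNA, labelled as repeats with no word on whether they were separate cultures, so the p-values measure the spread between these libraries, which may be technical.

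SOX proteins bind DNA through an HMG box, a domain that sits in the minor groove and bends the helix. They fall into groups by sequence: SOX3 belongs to the activators of the neural progenitor state and SOX21 is a related repressor, SOX4, SOX11 and SOX12 form a group that acts in differentiating neurons and in mesenchyme, SOX5 and SOX13 (with SOX6) lack an activation domain of their own and work with partners, and SOX9 acts in cartilage, neural crest and glial progenitors. Neural progenitors keep the activators on until differentiation, and SOX9 with SOX5 drives the collagen genes of cartilage.

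The 27 bases that encode the start of the HMG box show how close the 8 genes are at their shared domain, which matters for assigning reads to copies. The sequences are from the reference coding sequences of GENCODE 29 on GRCh38, 5′ to 3′ on the gene's strand, and capitals mark bases that differ from the commonest base at that position.
SOX3: cggcccatgaacgccttcatggtAtgg
SOX21: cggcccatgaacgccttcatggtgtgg
SOX4: cgAcccatgaacgccttcatggtgtgg
SOX11: cggccGatgaacgcGttcatggtAtgg
SOX12: AggccGatgaacgcAttcatggtgtgg
SOX5: cgTccAatgaaTgccttcatggtgtgg
SOX13: Aggcccatgaacgccttcatggtgtgg
SOX9: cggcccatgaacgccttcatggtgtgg
SOX21 and SOX9 were identical over these 27 bases, and the most distant pairs, SOX11 with SOX5 and SOX12 with SOX5, shared 22. On GRCh38, SOX3 (ENSG00000134595.9) lies at chrX:140502980-140505069 on the minus strand, SOX21 (ENSG00000125285.6) at chr13:94709622-94712545 (minus), SOX11 (ENSG00000176887.7) at chr2:5692384-5701965 (plus) and SOX12 (ENSG00000177732.9) at chr20:325452-330221 (plus), and like SOX4 (ENSG00000124766.7) they have 1 exon. SOX9 (ENSG00000125398.8) lies at chr17:72121009-72126416 (plus) with 3 exons, SOX13 (ENSG00000143842.15) at chr1:204017334-204127743 (plus) with 14 in the reference, and SOX5 (ENSG00000134532.20) at chr12:23529499-24562459 (minus) with 15. The assembled transcripts of these genes averaged between 2090 and 9582 bases per read, so the box is a small part of each molecule. The sources used here do not say how a read that fits several similar genes was assigned.

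Depth was greatest for ectoderm, at 1180888 and 967206 reads, against 519306 and 562042 for hPSC, 585558 and 586183 for endoderm and 531106 and 503840 for mesoderm. Levels are given as CPM, read counts scaled to the library total, and ratios given by pooled CPM use the same library totals, while the fitted values and tests use TMM scaling, whose effect is given beside each ratio. A count of 0 allows up to 3 reads, from 2.54 CPM in the deepest library to 5.95 in the shallowest (counting error only). The hPSC repeats differed most: they correlated at 0.863 across genes on the log2 scale against 0.932 to 0.965 in the layers, and 753 genes were over 4-fold apart between them, compared with 9 between the ectoderm repeats, 447 for endoderm and 101 for mesoderm. Marker genes followed the labels in endoderm, where CER1, SOX17, FOXA2, GATA4, GATA6, EOMES and CXCR4 were all detected and summed to 2271 and 2387 CPM, against 0 in hPSC. CER1 alone gave 1663 and 2015 CPM of these sums, and FOXA2, with 3 and 4 reads, was not tested. Of 8 tested pluripotency genes, 5 were called lower in endoderm than in hPSC. NANOG (157 and 111 CPM in endoderm), TDGF1 (772 and 599) and LIN28A (835 and 761) were not. In mesoderm HAND1, MSX2 and TBX3 were called higher than in hPSC, as they were in endoderm, but KDR, a receptor of VEGF, was called lower. Among the rest of the 7 listed mesoderm genes, MIXL1 had 0 reads in mesoderm and 14 and 23 in the endoderm libraries. TBXT had 1 read in mesoderm and 5 in endoderm, and FOXF1 had 0 and 2. In ectoderm the neural progenitor gene PAX6 had 144 and 81.7 CPM against 0 in hPSC, while NES, another progenitor gene, had 19.5 and 11.4 CPM (23 and 11 reads) and passed no test against hPSC. Of the progenitor genes that were not tested, LHX2 had 40 and 16 reads in ectoderm and 0 in every other group. DACH1 had 30 and 13 in ectoderm and 1 in mesoderm, and POU3F1 32 and 15 in ectoderm and 5 in hPSC. FABP7, POU3F2 and NR2F1 had at most 4 reads in any library. The assembled transcripts to which ectoderm reads were assigned were also longer, averaging 4406 and 4650 bases per read, against 3298 and 3114 in hPSC. The length of the reads themselves was not measured.

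Of the 8 SOX genes, 4 were higher in ectoderm than in hPSC and 1 was lower. Among all genes tested, 23.8% were called higher and 24.8% lower in this comparison, 48.6% in either direction. Calls are those of edgeR's quasi-likelihood test with a Benjamini-Hochberg adjusted p under 0.05 over all genes. SOX5, SOX9, SOX11 and SOX21 were higher and SOX13 was lower, and the median log2 fold change of the 8 genes was 0.60 against -0.01 over all genes. In endoderm no SOX gene was called higher than in hPSC and 3 were called lower (SOX3, SOX4 and SOX11), where 27.1% of all genes were called, 13.4% higher and 13.7% lower. In mesoderm SOX9 alone was called, and it was higher, where 35.2% of all genes were called, 17.0% higher and 18.2% lower. The median of the 8 genes was -1.24 in endoderm with SOX3 at its bound and SOX21 left out because it had too few reads for a fold, and -0.72 in mesoderm, against -0.13 and 0.01 over all genes. These comparisons share the hPSC libraries. The shares over all genes depend on single libraries: in each comparison fewer genes were called in a fit without either library of the layer. Those fits tested other sets of genes, and which of the calls they kept was not counted.

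**Figure D1:**
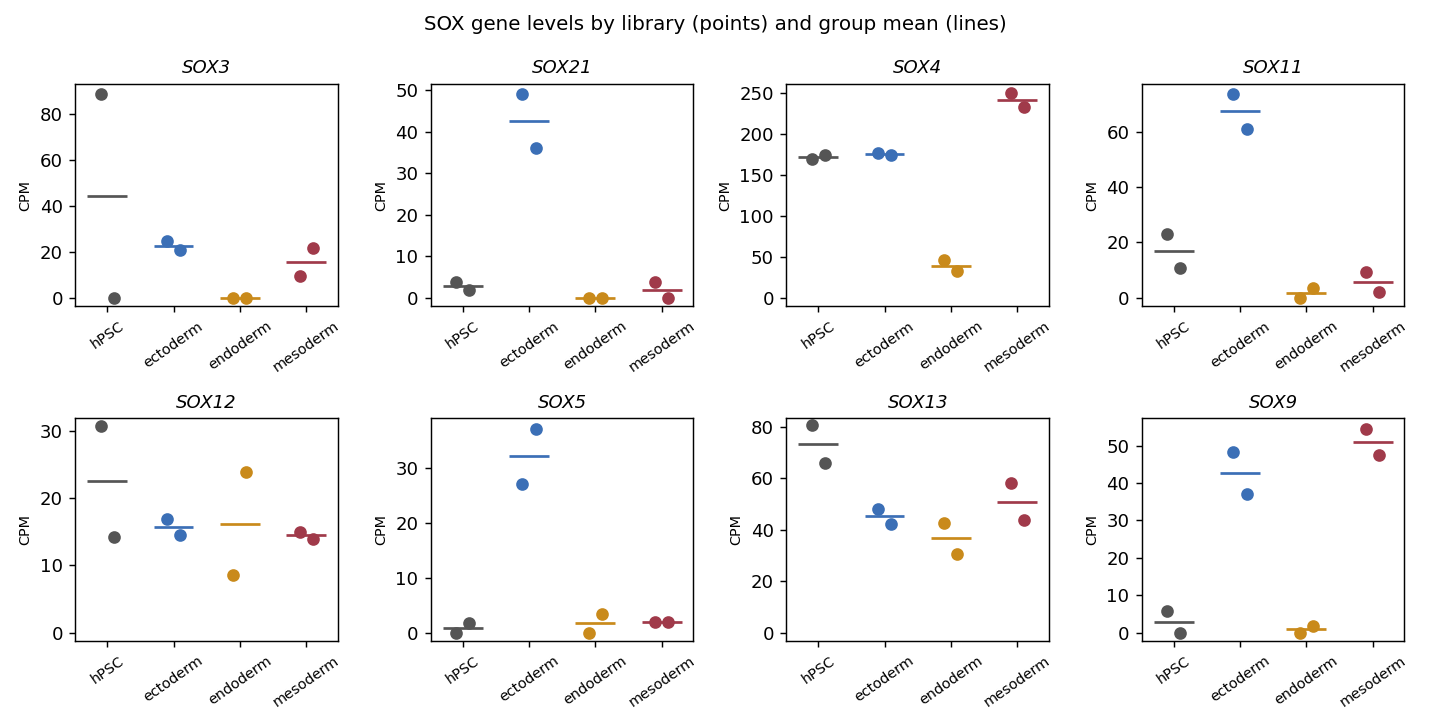
Level in CPM (vertical axis, linear, 1 scale per gene) of the 8 SOX genes in each of the 8 libraries, with points for libraries and lines for group means. SOX21 and SOX5 stand above 27 CPM in the ectoderm libraries alone, SOX9 is above 37 CPM in ectoderm and mesoderm, and SOX4 is lowest in the endoderm libraries.

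**Figure D2:**
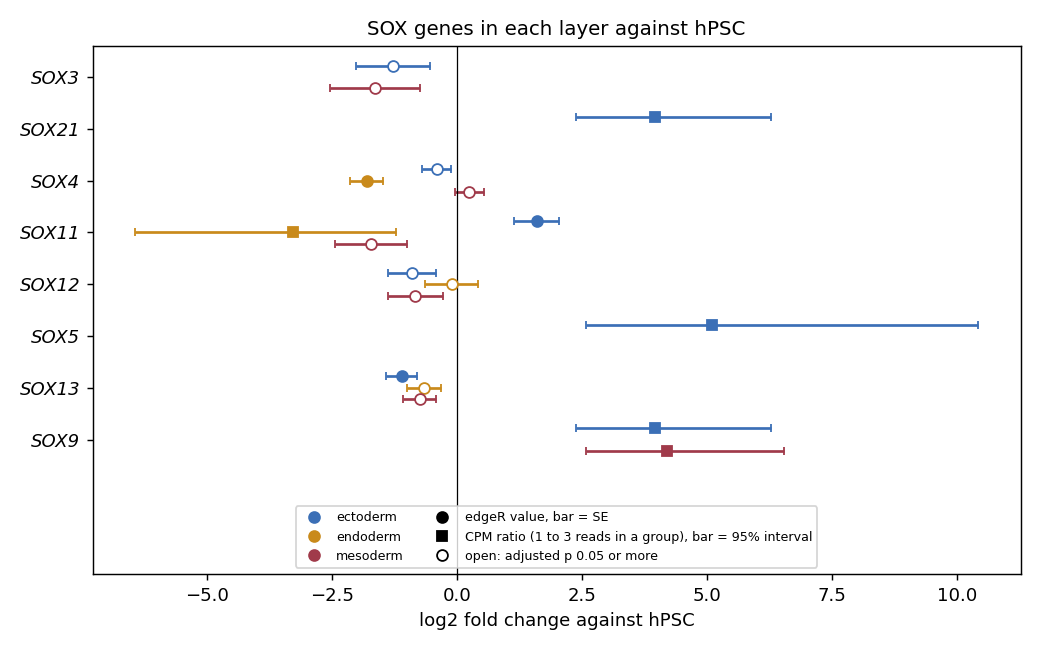
Log2 fold change of each SOX gene in each layer against hPSC. Circles are edgeR values with their SE, squares are ratios of CPM by library totals with a 95% counting interval where a group had 1 to 3 reads, filled symbols passed the test, and pairs with a group at 0 or with few reads in both groups are not drawn.

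SOX3 and SOX21 are the progenitor genes of the set, an activator and a repressor. SOX21 had 49.1 and 36.2 CPM in the ectoderm libraries. It had 3.85 and 1.78 CPM in hPSC and 3.77 and 0 in mesoderm. It was at 0 in both endoderm libraries. Both ectoderm libraries were therefore above all 6 others, while hPSC and mesoderm overlapped. The ectoderm level was 15.6-fold that of hPSC by pooled CPM (95% counting interval 5.18 to 77.0, 3 reads in hPSC) and 22.4-fold that of mesoderm (6.03 to 188, 2 reads), or 11.7-fold and 19.6-fold with TMM scaling. Against endoderm it was at least 4.77-fold higher with TMM scaling and 8.32-fold with library totals, both against the 3-read limit per library. Adjusted p was 0.000799, 0.000461 and 0.00011 in edgeR's quasi-likelihood test, and these 3 calls held under every alternative tried.

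SOX3 depended on 1 library. Its level was 88.6 CPM in hPSC repeat 1 (46 reads) and 0 in hPSC repeat 2, and it was the 1 gene of the 2827 tested genes with at least 40 reads in hPSC repeat 1 that had 0 in repeat 2. Ectoderm had 24.6 and 20.7 CPM, mesoderm 9.41 and 21.8, and both endoderm libraries were at 0. The 2 hPSC libraries thus held the highest and the joint lowest value. SOX3 was at least 5.93-fold lower in endoderm than the hPSC mean with TMM scaling (adjusted p 0.0176 in edgeR), but without hPSC repeat 1 all libraries of both groups were at 0 and no fold remained. Ectoderm against hPSC missed the threshold (log2 fold change -1.28 ± 0.75 SE, adjusted p 0.169), and it reached adjusted p 0.00306 upward without hPSC repeat 1 and 1.32e-05 downward without repeat 2. Ectoderm was at least 2.53-fold higher than endoderm with TMM scaling (adjusted p 0.0377 in edgeR), and this call was lost in 8 of 15 alternatives, among them leaving out any of the ectoderm, endoderm or mesoderm libraries.

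SOX2, the closest relative of SOX3 and a core pluripotency factor, showed the same imbalance in hPSC. It had 71 reads in hPSC repeat 1 and 5 in repeat 2, 180 and 129 in ectoderm, and 0 in the 4 endoderm and mesoderm libraries. SOX2 was at least 9.91-fold lower in endoderm and at least 12.2-fold lower in mesoderm than the hPSC mean, and it was called in both. From hPSC repeat 2 alone these bounds were 1.49 and 1.97 with TMM scaling, and the call in endoderm was lost without either endoderm repeat (highest adjusted p 0.0661 in edgeR). SOX21-AS1, a noncoding gene beside SOX21, had 27 and 23 reads in ectoderm, 1 read in hPSC and none in endoderm or mesoderm. Whether the counting used strand is not given, so reads where a gene and an antisense partner overlap cannot be told apart.

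SOX4, SOX11 and SOX12 share a group but not a pattern. Mesoderm held 250 and 232 CPM of SOX4, ectoderm 177 and 174, hPSC 169 and 174, and endoderm 46.1 and 32.4. Both endoderm libraries lay below all 6 others, and both mesoderm libraries above them. SOX4 fell in endoderm (log2 fold change -1.80 ± 0.33 SE against hPSC, adjusted p 0.00099 with edgeR). Mesoderm had the highest group mean and endoderm the lowest under both scalings, and the order of ectoderm and hPSC turned with the scaling: 175 and 172 CPM by library totals, 138 and 183 by TMM. Ectoderm and hPSC did not differ past the threshold (-0.40 ± 0.29, log2, SE, adjusted p 0.261 in edgeR), nor did mesoderm from either of them. Mesoderm was also higher than endoderm (2.05 ± 0.33 SE, adjusted p 0.000174) and so was ectoderm (1.40 ± 0.33, adjusted p 0.00165), and these 3 SOX4 calls held under every alternative. Among all genes tested, 47.1% were called in mesoderm against endoderm (23.9% higher and 23.2% lower), and 63.1% in ectoderm against endoderm (33.1% higher and 29.9% lower). In bulk RNA, fewer cells that express a gene and less RNA per cell cannot be told apart.

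SOX11 had 73.7 and 61.0 CPM in ectoderm, 23.1 and 10.7 in hPSC, 9.41 and 1.98 in mesoderm, and 0 and 3.41 in endoderm. Both ectoderm libraries lay above all others, and endoderm and mesoderm overlapped. SOX11 rose in ectoderm against hPSC (log2 fold change 1.60 ± 0.45 SE, adjusted p 0.00841 in edgeR). Its single transcript is 9582 bases long, and with a trend on transcript length removed from each library the value was 0.49 (adjusted p 0.435). DESeq2 gave adjusted p 0.088, and the fit without ectoderm repeat 1 gave 0.0623. The ectoderm level was 3.31 ± 0.56 (log2, SE) above mesoderm (adjusted p 0.000332, with 35.5% of all genes called, 18.1% higher and 17.3% lower) and 39.8-fold that of endoderm by pooled CPM (95% counting interval 10.8 to 332, 2 reads in endoderm) or 23.5-fold with TMM scaling (6.40 to 196), calls that held under every alternative. SOX11 in endoderm was 9.75-fold lower than in hPSC by pooled CPM (2.33 to 86.7, or 7.72-fold with TMM, adjusted p 0.0328 in edgeR), a call lost in 7 of 15 alternatives, among them DESeq2 (0.106) and the fits without hPSC repeat 1 (0.0955), ectoderm repeat 1 (0.0618), ectoderm repeat 2 (0.0589), endoderm repeat 1 (0.246) or endoderm repeat 2 (0.0513).

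SOX12 was at 30.8 and 14.2 CPM in hPSC and at 8.54 and 23.9 in endoderm, while ectoderm had 16.9 and 14.5 and mesoderm 15.1 and 13.9. On this scale all 4 groups overlapped, and none of the 6 comparisons passed the threshold. The largest fitted difference was -0.90 ± 0.48 SE in ectoderm against hPSC (95% interval -1.85 to 0.05, adjusted p 0.137 in edgeR).

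**Figure D3:**
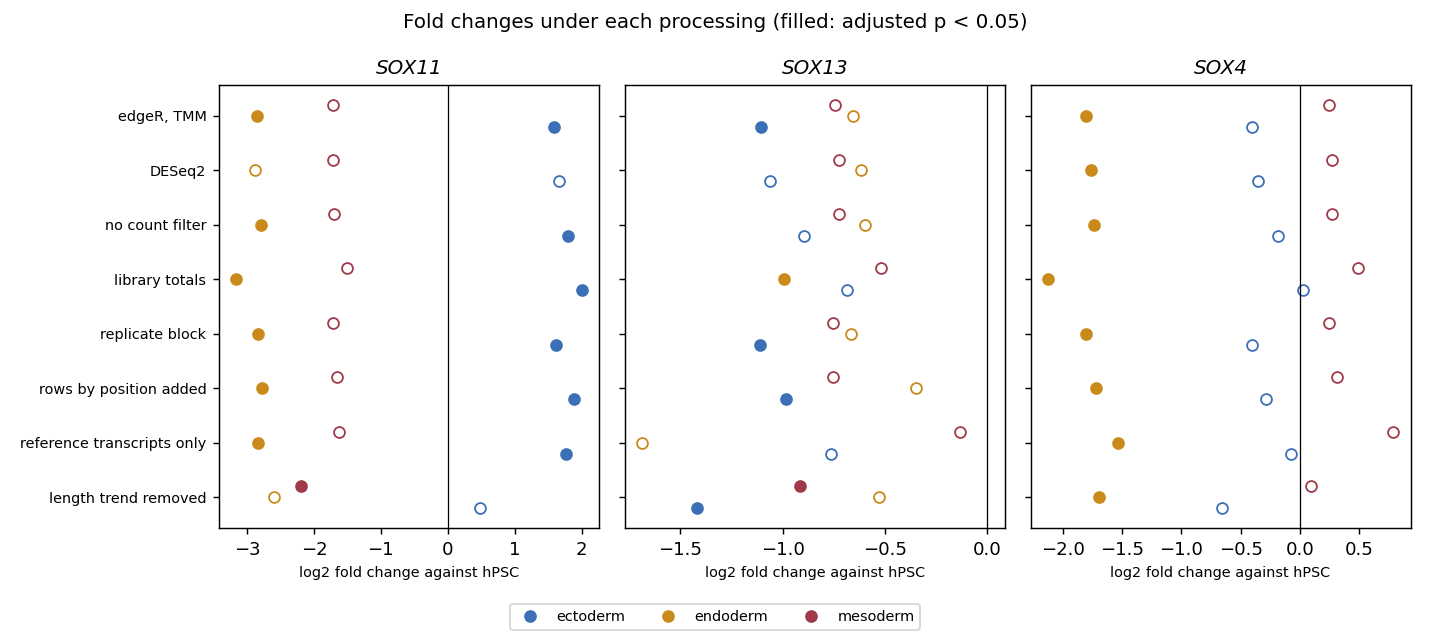
Log2 fold change against hPSC of SOX11, SOX13 and SOX4 (horizontal axes) under edgeR and 7 alternative treatments of the counts (rows), with filled points where the adjusted p was under 0.05. In the row with positions added, transcripts listed under a gene by position alone count toward it. SOX11 in ectoderm moves from 1.60 to 0.49 when the length trend is removed, whereas SOX4 in endoderm is filled in every row.

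SOX4 reads came in 3 assembled forms, 472, 194 and 193 reads over the 8 libraries. SOX4 is a gene of 1 exon (chr6:21593744-21598619 on the plus strand of GRCh38), and the most abundant form is that whole exon. The form with 194 reads lacks 121 bases inside the coding sequence, chr6:21595111-21595231, and the form with 193 reads lacks 82 bases before it, chr6:21594404-21594485. Both also end earlier than the whole exon, at 21596281 and 21597001 against 21598619. The forms therefore differ in their 3′ end and length (2412 and 3171 bases against 4876) as well as in the gap. The 121 bases are shown because their ends bear on how the gap is read, and capitals mark the first and the last 2 bases of the missing stretch, which are not the usual GT and AG of an intron.
SOX4 missing stretch: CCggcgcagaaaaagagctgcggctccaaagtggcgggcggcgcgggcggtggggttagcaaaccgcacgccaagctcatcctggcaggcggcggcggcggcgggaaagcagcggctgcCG
The stretch was 72.7% G and C, its length is not a multiple of 3, and it was bordered by a direct repeat of 3 bases. The 82-base stretch was 79.3% G and C, began with GG and ended with GC, and was flanked by a direct repeat of 4 bases, against 50.7% G and C over the SOX4 transcript.

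Of the SOX4 reads in mesoderm, 64.7% and 63.2% came from the whole-exon form, against 53.4% and 41.8% for hPSC, 53.6% and 51.2% for ectoderm, and 55.6% and 57.9% for endoderm. The Wilson 95% interval of hPSC repeat 2 (32.6% to 51.7%) lay below those of both mesoderm libraries, whose lowest bound was 54.2%, while that of hPSC repeat 1 (43.1% to 63.5%) overlapped both, and in endoderm the intervals ran from 36.3% to 76.9%. The forms that lack a stretch, which also end earlier, made up 52.4% ± 8.18 (SD, n = 2) of SOX4 reads in hPSC and 36.0% ± 1.00 in mesoderm. The test of transcript choice (edgeR's diffSpliceDGE, Simes p per gene) called SOX4 in none of the 6 comparisons, with an adjusted p of 1 in each and an unadjusted p from 0.312 to 0.917, so none was under 0.05. The gene-wise F test of the same tool gave its lowest adjusted p of 0.285 in mesoderm against hPSC. Of the 2629 genes with at least 2 tested transcripts, the Simes test called 2.66% in ectoderm, 2.13% in endoderm and 2.97% in mesoderm against hPSC, 7.46% in ectoderm against endoderm, 2.81% in ectoderm against mesoderm and 4.34% in mesoderm against endoderm. No other SOX gene had 2 tested transcripts. Each SOX4 form was lower in endoderm than in hPSC, by 1.59, 1.65 and 2.72 on the log2 scale, and each passed the transcript test in edgeR (adjusted p 0.00467, 0.0134 and 0.00241, with 26.8% of 12440 transcripts called). The 3 forms were also called higher in ectoderm (62.6% of transcripts called) and in mesoderm (45.8%) than in endoderm, and the whole exon alone was called lower in ectoderm than in mesoderm (by 0.88 on the log2 scale, adjusted p 0.0329 in edgeR, 33.6% of transcripts called). No SOX4 form was called in ectoderm or mesoderm against hPSC, where 45.9% and 32.8% of transcripts were.

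**Figure D4:**
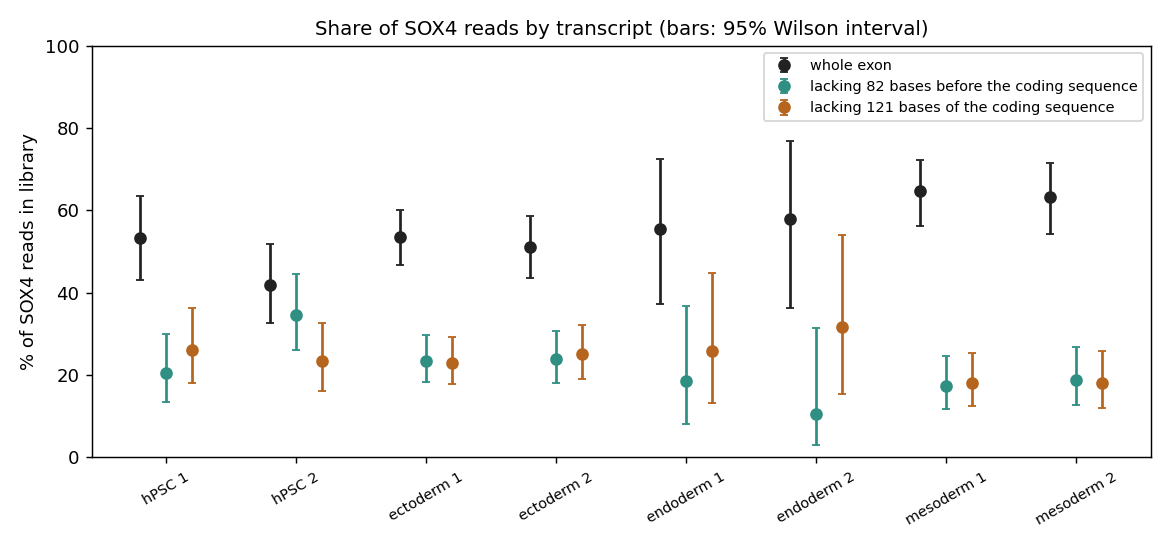
Share of SOX4 reads (vertical axis, percent) taken by each of the 3 assembled forms in each library, with 95% Wilson intervals that cover counting error only. The whole exon takes the largest share in all 8 libraries, from 41.8% to 64.7%, and the intervals are widest in endoderm, where SOX4 had 27 and 19 reads.

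SOX5 and SOX13 are the members without an activation domain. SOX5 had 27.1 and 37.2 CPM in ectoderm, 0 and 1.78 in hPSC, 0 and 3.41 in endoderm, and 1.88 and 1.98 in mesoderm. Of its 73 reads, 68 were in ectoderm. The ectoderm level was 34.2-fold that of hPSC by pooled CPM (95% counting interval 5.94 to 1372, 1 read in hPSC), 18.5-fold that of endoderm (4.94 to 156) and 16.4-fold that of mesoderm (4.36 to 138). With TMM scaling the 3 ratios were 25.6 (4.43 to 1024), 10.95 (2.92 to 92.3) and 14.4 (3.82 to 121). Adjusted p was 0.000835, 0.00165 and 0.00142 in edgeR, and these 3 calls held in the 14 alternatives that kept the gene. The other 3 comparisons, among groups with 1 or 2 reads each, say nothing on direction.

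The SOX5 reads in ectoderm fell into 13 assembled transcripts that differed in what they could encode. One form held the whole reference coding sequence of 2289 bases (chr12:23529499-23949670, minus strand) with 7 of 32 and 8 of 36 reads in the ectoderm repeats, 21.9% and 22.2%. Forms that held the HMG box start but not the whole coding sequence made up 34.4% and 41.7%, and forms without the box start 43.8% and 36.1%. The ectoderm repeats were alike within their counting error in all 3 classes. Of the forms without the box start, 3 spliced ones shared an early end at position 23729034 of chromosome 12 and took 7 and 5 reads, and an unspliced stretch of 10473 bases inside the gene took 7 and 7. Over all forms, 52.8% ± 3.93 (SD, n = 2) of the ectoderm reads were assigned to forms that begin within 2 kb of position 23951032. The form that begins far upstream at 24562459 holds no coding bases and had 1 read in ectoderm and 2 in endoderm, which are all the SOX5 reads of endoderm.

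SOX13 was highest in hPSC at 80.9 and 65.8 CPM, followed by mesoderm at 58.4 and 43.7, ectoderm at 48.3 and 42.4, and endoderm at 42.7 and 30.7. The order of the layers turned with the scaling: with TMM the means were 48.8 in endoderm, 45.9 in mesoderm and 35.7 in ectoderm, and no pair of layers differed past the threshold. Both hPSC libraries lay above all 6 others under both scalings. The layers overlapped by library totals, while with TMM both ectoderm libraries (38.1 and 33.3 CPM) lay below those of endoderm and mesoderm (39.1 to 55.2). The fall in ectoderm against hPSC passed the test (log2 fold change -1.10 ± 0.31 SE, adjusted p 0.00851 with edgeR). It was lost with DESeq2 (0.0814), with library totals in place of TMM (log2 fold change -0.69, adjusted p 0.0792), without the count filter (0.0588), with reference transcripts alone (0.208), and without ectoderm repeat 1 (0.078) or repeat 2 (0.15). Endoderm and mesoderm were -0.66 ± 0.34 and -0.74 ± 0.33 (log2, SE) against hPSC, with adjusted p 0.164 and 0.0907. Endoderm passed the threshold with library totals, and mesoderm with the length trend removed.

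Most SOX13 reads came from transcripts that hold its whole coding sequence of 1866 bases. Their share was 86.1% ± 0.546 (SD, n = 2) for hPSC, 77.8% ± 10.7 for ectoderm, 86.4% ± 3.46 for endoderm and 89.0% ± 2.70 for mesoderm. The rest came from 2 forms that begin late and keep 1091 coding bases with the HMG box start, and their share was 29.8% in ectoderm repeat 1 and 14.6% in ectoderm repeat 2, with Wilson intervals that overlapped (19.5% to 42.7% and 6.88% to 28.4%). The form that begins farthest upstream, at position 204017334 of chromosome 1, took 8 and 4 reads in endoderm, 1 and 4 in hPSC, 4 and 4 in ectoderm and none in mesoderm. Its share was 32.0% and 22.2% in endoderm and 0 of 53 reads in mesoderm, which allows up to 6.76% (Wilson). It had too few reads for the transcript test.

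**Figure D5:**
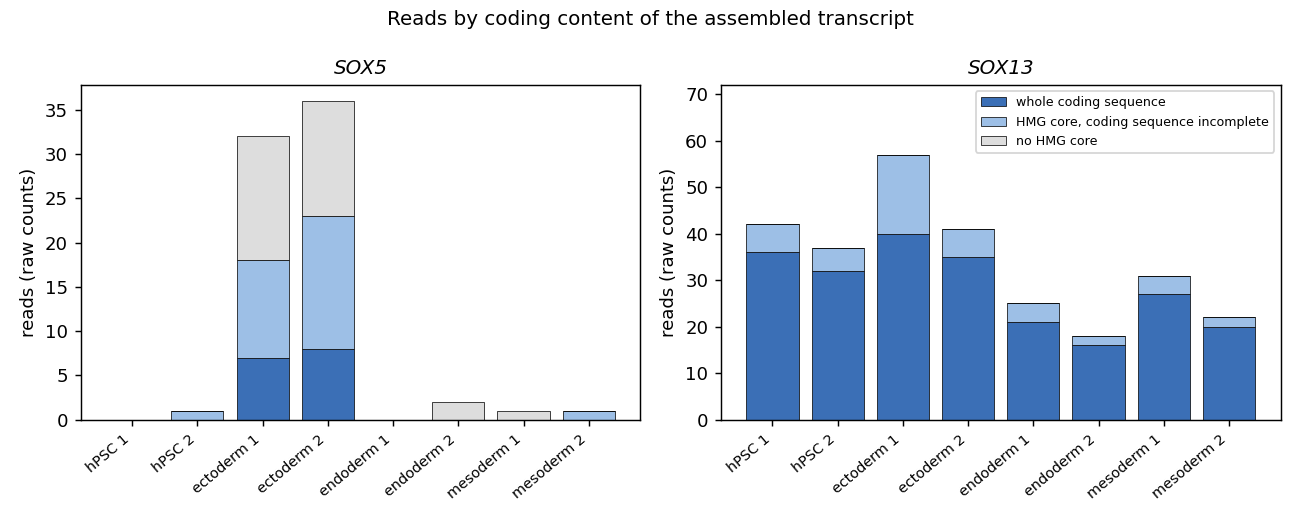
Raw reads of SOX5 (left) and SOX13 (right) in each library, stacked by whether the assembled transcript holds the whole reference coding sequence, the HMG box start alone, or neither. SOX5 has 32 and 36 reads in ectoderm and at most 2 in any other library, whereas SOX13 is mostly whole in all 8.

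SOX9 was high in 2 layers. It had 48.3 and 37.2 CPM in ectoderm, 54.6 and 47.6 in mesoderm, 5.78 and 0 in hPSC, and 0 and 1.71 in endoderm. The 4 ectoderm and mesoderm libraries lay above the 4 others without overlap. Ectoderm and mesoderm overlapped with each other by library totals. With TMM scaling they did not, at 38.1 and 29.2 CPM in ectoderm and 49.3 and 42.7 in mesoderm. The level was 15.6-fold that of hPSC in ectoderm (95% counting interval 5.18 to 77.0) and 18.5-fold in mesoderm (5.98 to 92.4), by pooled CPM against 3 reads in hPSC. Against endoderm, which had 1 read, it was 50.7-fold in ectoderm (8.88 to 2025) and 60.0-fold in mesoderm (10.3 to 2414). With TMM scaling the ratios to hPSC were 11.7 in ectoderm and 15.7 in mesoderm, and those to endoderm 29.96 (5.25 to 1196) and 40.5 (6.95 to 1628). The 4 adjusted p values in edgeR ran from 0.000208 to 0.000737, and the 4 calls held under every alternative. Ectoderm and mesoderm did not differ past the threshold (-0.44 ± 0.37 SE, 95% interval -1.17 to 0.29, adjusted p 0.379).

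Between layers, 6 of the 8 genes were called higher in ectoderm than in endoderm (SOX3, SOX4, SOX5, SOX9, SOX11 and SOX21) and none lower, where 63.1% of all genes were called and 33.1% were higher. In ectoderm against mesoderm 3 were called higher (SOX5, SOX11 and SOX21) and none lower, where 35.5% of all genes were called and 18.1% were higher. In mesoderm against endoderm 2 were called higher (SOX4 and SOX9) and none lower, where 47.1% of all genes were called and 23.9% were higher. In each of these comparisons between layers, fewer genes were called over all genes in a fit without 1 library of either group. More were called in a fit without either hPSC library, although hPSC is not in these comparisons. Those fits also tested other sets of genes. The medians of the 8 genes were 1.83 with SOX3 and SOX21 at their bounds, 0.15, and 0.99 with SOX3 at its bound and SOX21 left out, against 0.19, 0.02 and 0.16 over all genes. Summed over the 8 genes by library totals, the level was 97.3 and 95.5 CPM in endoderm, against 269 to 465 CPM in the 6 other libraries. SOX4 was the largest part of each sum, at 46.1 and 32.4 CPM in endoderm and 169 to 250 CPM in the 6 others. SOX12 and SOX13 were called in no comparison with endoderm.

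Across the 8 libraries, SOX11 and SOX21 tracked each other most closely of the 28 pairs (Pearson's r 0.929 of log2(CPM + 1)), followed by SOX5 with SOX21 (0.794). The lowest pair was SOX5 with SOX13 (-0.36). Over all tested genes with a symbol, the closest to SOX9 were BOC (0.998), KPNA4 (0.994) and DOCK4 (0.990), the closest to SOX4 were STN1 (0.996), SNX5 (0.993) and SETD3 (0.989), and the closest to SOX21 were LINC01089 (0.991), SLCO1B1 (0.989) and IFT140 (0.988). SOX3 was closest to VAC14 (0.988), HNRNPL (0.988) and RAD23B (0.982), SOX5 to CNTRL (0.986), ZNF761 (0.975) and RPS6KA6 (0.970), and SOX11 to COX16 (0.983), ZBTB8B (0.976) and SSBP1 (0.974). SOX12 was closest to LRRC45 (0.934), SEC61B (0.895) and GLTP (0.877), and SOX13 to SSNA1 (0.955), ZNF398 (0.949) and TOMM5 (0.946). The 8 points share 4 groups and the depth of each library, so these values describe a pattern and carry no test.

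Genes that SOX proteins are known to act with or on moved unevenly. Of 84 calls on listed genes against hPSC, 18 were lost in at least 1 alternative. Over all genes tested against hPSC, 23.8% were called higher and 24.8% lower in ectoderm, and 13.4% and 13.7% in endoderm. In mesoderm 17.0% were higher and 18.2% lower. The counts of this list and of those that follow stand beside these shares. Of the 9 tested cartilage genes that SOX9, SOX5 and SOX6 control (15 listed), ectoderm had 4 higher and 1 lower than hPSC, endoderm 5 and 2, and mesoderm 3 and 3. COL2A1, the main collagen of cartilage, was at 119 and 113 CPM in ectoderm and at 42.7 and 80.2 in endoderm, while mesoderm had 20.7 and 29.8 and hPSC 13 and 12 reads. COL2A1 passed the test against hPSC in ectoderm and in endoderm, where SOX9 had 1 read. The endoderm call was lost without endoderm repeat 2. Ectoderm and endoderm did not differ in COL2A1 past the threshold (adjusted p 0.713 in edgeR). The part of SOX9 in these levels was not tested. HAPLN1, which links hyaluronan to proteoglycan, was at 233 and 298 CPM in mesoderm and at 59.3 and 49.6 in ectoderm, while endoderm had 17.1 and 11.9 and hPSC 1 read in all. HAPLN1 was called higher than hPSC in each layer and higher in mesoderm than in the other layers. COL9A1, another cartilage collagen, was 1.70 ± 0.33 (log2, SE) above hPSC in ectoderm (adjusted p 0.000714 in edgeR) and lower in endoderm (lost without endoderm repeat 2, 0.0593) and mesoderm (lost with DESeq2 and without mesoderm repeat 1, highest adjusted p 0.0931). WWP2, a ubiquitin ligase, had between 32 and 164 reads in every library and was called higher in endoderm and lower in mesoderm, the latter lost without hPSC repeat 2, mesoderm repeat 1 or mesoderm repeat 2 (highest adjusted p 0.0898 in edgeR).

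Of the 5 tested neuron genes bound by SOX4 and SOX11 (7 listed), 1 was higher and 1 lower in ectoderm against hPSC, 2 higher in endoderm and 1 lower in mesoderm. MAP2, a dendrite protein, had 180 and 178 CPM in ectoderm and at most 9.92 in any other library. TUBB3, a neuronal tubulin, had 28 and 24 reads in ectoderm against 122 and 188 in hPSC and 947 and 989 in endoderm. It was called lower in ectoderm and higher in endoderm (2.84 ± 0.34, log2, SE). SOX4 and SOX11 were lowest in endoderm, and their part in the levels of these neuron genes was not tested. STMN1 passed no test against hPSC, and neither did TEAD2. The 8 neurogenic factors gave 2 genes with reads, NEUROG2 with 7 and 2 reads in ectoderm and ELAVL3 with 1 read, and none could be tested.

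Of the 4 tested neural progenitor genes (11 listed), PAX6 and CDH2 were higher in ectoderm against hPSC, and both were also higher in endoderm, PAX6 not without endoderm repeat 1 (adjusted p 0.0599 in edgeR). PAX6, a transcription factor of the neural plate and eye, was at least 14.1-fold higher in ectoderm than in hPSC and was called 2.82 ± 0.47 (log2, SE) higher than in endoderm. CDH2, a cadherin, was highest in endoderm at 412 and 338 CPM against 105 and 115 in ectoderm. MSI1, an RNA-binding protein, was called higher in ectoderm against mesoderm alone, a call lost in 5 of 15 alternatives, among them the fits without ectoderm repeat 1, ectoderm repeat 2 or mesoderm repeat 1 (highest adjusted p 0.366 in edgeR), and NES in no comparison.

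The neural crest list (12 genes, 5 tested) had no gene higher and 1 lower in ectoderm against hPSC, 3 lower in endoderm, and 3 higher and 1 lower in mesoderm. TFAP2A, a crest and surface ectoderm factor, was at least 41.7-fold higher in mesoderm, SNAI2, an inducer of cell movement, at least 9.31-fold higher, and ERBB3, a receptor of neuregulin, 0.98 ± 0.33 (log2, SE) higher, a call lost in 5 of 15 alternatives (highest adjusted p 0.173 in edgeR), among them the fits without mesoderm repeat 1 or repeat 2. NGFR, a neurotrophin receptor, fell in mesoderm (log2 fold change -3.87 ± 0.69 SE) from hPSC levels of 148 and 33.8 CPM, and ectoderm held 146.5 and 149. SOX10, the crest gene that SOX9 precedes, had at most 3 reads in any library. The mesenchyme list (12 genes, 8 tested) had 6 higher and 1 lower in mesoderm, with COL1A1 at 2915 and 3731 CPM against 250 and 171 in hPSC, no gene higher and 3 lower in ectoderm, and 1 higher and 2 lower in endoderm. The mesenchyme genes summed to 5969 and 6695 CPM in mesoderm, where SOX9 was high, and to 376 and 393 CPM in ectoderm, where SOX9 was high too. Their part in the SOX9 result was not tested.

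Of the 3 tested SOX genes outside the set (9 listed), SOX2 is given above, SOX17 had reads in endoderm alone and SOX15 rose in mesoderm. SOX17, an endoderm factor, had 150 and 16 reads in the endoderm repeats and 0 in the 6 other libraries. SOX15 had 55 and 33 reads in ectoderm, 37 and 26 in mesoderm, 8 and 11 in hPSC, and 1 and 5 in endoderm, and was 1.54 ± 0.45 (log2, SE) higher in mesoderm than in hPSC (adjusted p 0.0155 in edgeR), a call lost with DESeq2 and without mesoderm repeat 1 (highest adjusted p 0.101). The pluripotency list had 8 tested genes, of which 6 were lower in ectoderm, 5 in endoderm and 8 in mesoderm. CASC15, the noncoding gene beside SOX4, was called in no comparison against hPSC, with 23.1 to 34.7 CPM in hPSC, ectoderm and endoderm and 9.41 and 27.8 in mesoderm.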

How the data were processed

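The data are PacBio Sequel II reads of polyadenylated RNA in 8 libraries, assigned to groups by title. What the authors deposited for each transcript is a raw count with no normalization. The unit of the endoderm columns, whose names also read as positions, was entered in this re-analysis under expected counts, but the values the authors deposited there are whole raw counts, so none was rounded. Transcript positions are other values, deposited in the combined assembly. The submitters' processing notes name minimap2, StringTie and GRCh38. The counter and its handling of strand are not given in the sources used here.

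A gene's count was the sum over transcripts that the assembly names for it. The 9847 transcripts listed under a gene by position alone were counted as their own loci. Counts were fitted with edgeR 4.0.16 (R 4.3.3) using TMM, filterByExpr at a minimum count of 10, and 1 quasi-likelihood fit over all 8 libraries with 6 two-sided contrasts and Benjamini-Hochberg adjustment at 0.05. An SE is the log2 fold change divided by the square root of F. Folds against a group at 0 use a limit of 3 counts per library and give the lower of the values by TMM and by library totals. TMM scaling of ratios and bounds was added after the data were seen. Intervals on ratios are exact conditional binomial, those on shares Wilson, both at 95%. In tests on simulated data, 82%, 77% and 75% of 200 genes changed 4-fold were recovered for ectoderm, endoderm and mesoderm among 10847 genes, with 2.38%, 5.52% and 8.54% of calls false. In the real libraries far more than 200 genes were called against hPSC, 48.6%, 27.1% and 35.2% of those tested. Whether these rates hold at such shares was not tested. For transcript choice, 99% of 100 exchanged genes were recovered among 2629 for ectoderm, with 4.81% of calls false. The transcripts exchanged were at least 4-fold apart in level. Recovery of smaller shifts, such as those in the SOX4 shares, was not tested. Alternatives were DESeq2 1.42.0, other filters, scalings and gene counts, a length trend, a repeat term and leaving out each library.

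The SOX genes, lists and tests were chosen with earlier results of these data known. Named genes are all SOX genes of the set, their transcripts with at least 5% and at least 10 of their reads, up to 4 genes per list with the most reads, and the 3 genes closest to each SOX gene with at least 20 reads. Markers and transcripts outside that rule (FOXA2, GATA6, CXCR4, NANOG, MIXL1, TBXT, FOXF1, LHX2, DACH1, POU3F1, FABP7, POU3F2, NR2F1 and the rarer SOX5 forms) were named after their values were seen.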

Additional observations from a re-analysis of the deposited data

Results flagged for a closer look

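Transcripts placed at 3 of the SOX genes by position alone had reads above the hPSC libraries and enter no gene count. The 11 transcripts inside SOX5 introns, 10 of them unspliced, summed to 32.2 and 38.3 CPM in ectoderm (38 and 37 reads), against 3.85 and 3.56 CPM in hPSC. The antisense transcript listed under SOX6 (chr11:16738842-16744067, plus strand) had 38.1 and 46.5 CPM in ectoderm and 32.0 and 41.7 in mesoderm, against 13.5 and 10.7 in hPSC. An unspliced antisense transcript of 228 bases within SOX11 (chr2:5694670-5694897, minus strand) had 6.77 and 13.4 CPM in ectoderm (8 and 13 reads) and none in hPSC. Reads from the opposite strands of SOX11 cannot be told apart without strand in the counting.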

How the results depend on the processing

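Of 20 calls on single SOX genes, 15 held in every alternative that kept the gene, and 638 of 714 alternative values kept both direction and side of the threshold. The count of SOX genes called moved from 5 to 3 in ectoderm against hPSC with DESeq2 and with reference transcripts alone, from 3 to 1 in endoderm with DESeq2, and from 1 to 2 in mesoderm without the count filter and 3 with the length trend removed. Leaving out each library gave 3 to 6 in ectoderm, 1 to 3 in endoderm and 1 to 3 in mesoderm against hPSC, 5 to 6 in ectoderm against endoderm, 3 to 4 in ectoderm against mesoderm and 2 to 3 in mesoderm against endoderm. Library totals in place of TMM moved the median log2 fold change of all genes from 0.19 to 0.94 in ectoderm against endoderm, from 0.16 to 0.72 in mesoderm against endoderm, from -0.01 to 0.39 in ectoderm, -0.13 to -0.46 in endoderm and 0.01 to 0.24 in mesoderm against hPSC, and from 0.02 to 0.21 in ectoderm against mesoderm. Under them higher genes made up 66.5% of calls in ectoderm against hPSC in place of 49.0%, 31.8% in place of 49.5% in endoderm, 59.0% in place of 48.2% in mesoderm, and 71.7% in place of 52.5% in ectoderm against endoderm, 62.3% in place of 51.2% in ectoderm against mesoderm and 71.9% in place of 50.7% in mesoderm against endoderm, and 59.4% without the filter in ectoderm against hPSC. DESeq2 called 3356 genes in place of 5275 in ectoderm, 1836 in place of 2943 in endoderm and 2315 in place of 3815 in mesoderm against hPSC, and 2015 in place of 3846 in ectoderm against mesoderm. Directions turned for values that were not called. With library totals these were SOX4 in ectoderm against hPSC (0.0285), SOX13 in ectoderm against endoderm (0.31) and mesoderm against endoderm (0.48), SOX12 in ectoderm against mesoderm (0.12) and SOX5 in mesoderm against endoderm (0.16). With reference transcripts alone they were SOX13 in ectoderm against endoderm (0.92) and mesoderm against endoderm (1.55) and SOX12 in ectoderm against mesoderm (0.0070). SOX12 turned to 0.12 in the last comparison without the filter and to 0.0653 in endoderm against hPSC with the length trend removed, and SOX5 to -0.41 in mesoderm against hPSC with transcripts by position added. Leaving out 1 library turned 20 values, none of them called with all libraries, and gave these ranges. In ectoderm against hPSC SOX3 ran from -2.15 to 6.75. In endoderm against hPSC SOX9 ran from -4.16 to 2.98, SOX5 from -2.73 to 3.86 and SOX12 from -0.99 to 0.56. In mesoderm against hPSC SOX3 ran from -2.58 to 6.39, SOX5 from -0.27 to 3.49 and SOX21 from -4.12 to 0.27. In ectoderm against endoderm SOX12 ran from -1.33 to 0.21, and against mesoderm SOX3 from -0.0689 to 1.12 and SOX12 from -0.12 to 0.14. In mesoderm against endoderm SOX5 ran from -1.36 to 3.52, SOX13 from -0.32 to 0.11, SOX11 from -0.33 to 5.01 and SOX12 from -1.34 to 0.21. The cause was not tested. Repeat numbers did not pair the libraries (deviations of same-numbered libraries correlated at -0.03 to 0.13), and a fit with the repeat number as a block kept all 48 values on their side, with 5108 in place of 5275 genes called in ectoderm against hPSC. Depth limits SOX5, SOX9, SOX11 and SOX21 outside the groups where they were high, where a library held 0 to 12 reads.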
